A study of Mus musculus with 36 samples.

Results

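The 9 genes described here encode 5 serpins, the leukocyte protease inhibitor Slpi, both plasminogen activators and the urokinase receptor. They were taken by symbol from the 43472 genes listed in the count table, by the function of the encoded proteins. All 9 were present: Serpina3n, Serpina3g, Serpine2, Serpinb2, Serpinf1, Slpi, Plat, Plau and Plaur. RNA was measured by sequencing of transcript 3′ ends in primary enteric glial cells (EGCs), the glia of the gut nervous system, grown from neurospheres of wild-type mouse embryonic intestine. The cells were left unstimulated, or received medium conditioned by digested healthy colon (H-CM) or by digested orthotopic colon tumors grown from MC38 cells (TME-CM), and were harvested after 6, 12 or 24 h. Each of the 9 groups held 4 libraries, 36 in all. All cells shared the wild-type genotype, the embryonic origin and the culture in serum-containing medium, and both conditioned media came from mixed tissue digests, not from one cell type.

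Serpins inhibit a protease by offering it a reactive loop, and cleavage of that loop traps the enzyme in a covalent complex. Plasminogen activators cut plasminogen into plasmin, a broad protease that degrades fibrin and extracellular matrix, and several serpins limit this step at the cell surface. In the nervous system, Serpina3n is widely used as a marker of reactive glia, and Slpi is a secreted inhibitor of neutrophil elastase and cathepsin G best known from epithelia and leukocytes.

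Depth varied most at 6 h, where the 12 libraries held 13518 to 5244763 counts, against 2005239 to 5961933 at 12 h and 1608018 to 7552509 at 24 h. The shallowest was replicate 4 of H-CM at 6 h. A single gene, Yam1, took 11% to 48.6% of the counts of a library, and its removal left the number of members called in every comparison as it was. All 8 enteric glia markers were detected, with a summed level of 266 to 354 CPM (counts scaled to the effective size of each library) under TME-CM, 300 to 328 under H-CM and 258 to 288 without stimulation at 24 h. Markers of other cells were present in these cultures too: at 24 h the 6 fibroblast markers summed to 7200 to 9090, 5710 to 6540 and 6920 to 8740 CPM under TME-CM, H-CM and no stimulation, and the 8 measured macrophage markers to 77.5 to 398, 84.4 to 377 and 61.2 to 254 CPM. In bulk RNA, fewer cells of a type and less RNA per cell cannot be told apart.

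The genes that carry the main difference lie on chromosomes 12 and 2 (mm10, GENCODE annotation). Serpina3g (chr12:104236245-104241939, plus strand) and Serpina3n (chr12:104406729-104414329, plus strand) belong to the Serpina3 cluster, and Slpi (chr2:164354070-164389095, minus strand) lies outside it. Since these 3 genes moved together under TME-CM, the 250 bases before their RefSeq starts (GRCm38.p6) are shown 5′ to 3′, with capitals marking a match to any of 5 searched motifs. The windows are chr12:104235897-104236146 for Serpina3g, chr12:104406458-104406707 for Serpina3n and chr2:164356508-164356757, minus strand, for Slpi.
Serpina3g: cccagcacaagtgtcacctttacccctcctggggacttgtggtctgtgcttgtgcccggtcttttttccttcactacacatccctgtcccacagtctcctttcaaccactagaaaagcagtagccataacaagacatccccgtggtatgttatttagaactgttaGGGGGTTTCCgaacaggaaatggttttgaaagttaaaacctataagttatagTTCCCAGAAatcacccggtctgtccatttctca
Serpina3n: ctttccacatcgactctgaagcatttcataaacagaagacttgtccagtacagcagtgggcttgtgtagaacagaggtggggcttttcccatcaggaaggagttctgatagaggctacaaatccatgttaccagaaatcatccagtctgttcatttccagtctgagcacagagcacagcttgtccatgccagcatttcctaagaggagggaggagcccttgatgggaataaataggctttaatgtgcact
Slpi: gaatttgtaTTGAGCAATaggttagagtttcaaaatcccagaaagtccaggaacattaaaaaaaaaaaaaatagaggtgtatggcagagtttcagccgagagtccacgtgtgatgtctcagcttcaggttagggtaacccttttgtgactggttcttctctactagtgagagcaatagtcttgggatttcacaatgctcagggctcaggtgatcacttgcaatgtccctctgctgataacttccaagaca
The motifs were searched on both strands: STAT (TTCNNNGAA), AP-1 (TGANTCA), C/EBP (TTNNGCAAT), and the IRF element and the NF-kB consensus by their usual letters. The Serpina3g window held a STAT match 33 to 25 bases before the start and an NF-kB match 85 to 76 bases before it, which do not overlap. The Slpi window held a C/EBP match 241 to 233 bases before the start, and none of the 5 patterns was found in the Serpina3n window. Among 32851 RefSeq windows of the same length, 7.02% held the STAT pattern, 7.25% the NF-kB consensus, 1.93% the C/EBP pattern, 6.75% the AP-1 pattern and 2.98% the IRF pattern. Windows were given for 7 of the 9 members. Of the others, Plaur held an AP-1 match 69 to 63 bases before its start, and the windows of Serpine2 and Serpinf1 held none. Serpinb2 held AP-1 and C/EBP matches before each of its 2 listed starts and a STAT match 77 to 69 bases before the second. Its 2 windows overlap, and the AP-1 match is the same site in both.

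TME-CM was compared with H-CM to separate what the tumor digest added to the effect of a healthy tissue digest. Serpina3n, Serpina3g and Slpi were higher under TME-CM at 24 h, and Serpina3n, Slpi and Serpinb2 at 12 h. Serpine2, Serpinf1, both plasminogen activators and Plaur were not called between the conditioned media at any time. By edgeR's quasi-likelihood test with adjustment over all genes tested, 3 of 8 tested members were called at 24 h, where 5.4% of 12713 genes were called in either direction. At 12 h, 3 of 9 were called against 1.89% of 12156 genes, and at 6 h, 0 of 7 against 0.0972% of 9256 genes. At 6 h 1 member, Serpina3n, had an unadjusted p under 0.05 by edgeR, and DESeq2 called 0. The median log2 fold change of the tested members was 0.23 at 24 h and 0.67 at 12 h, against 0.00 over all genes tested at each of these times. At 6 h it was 0.47 against 0.13.

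**Figure D1:**
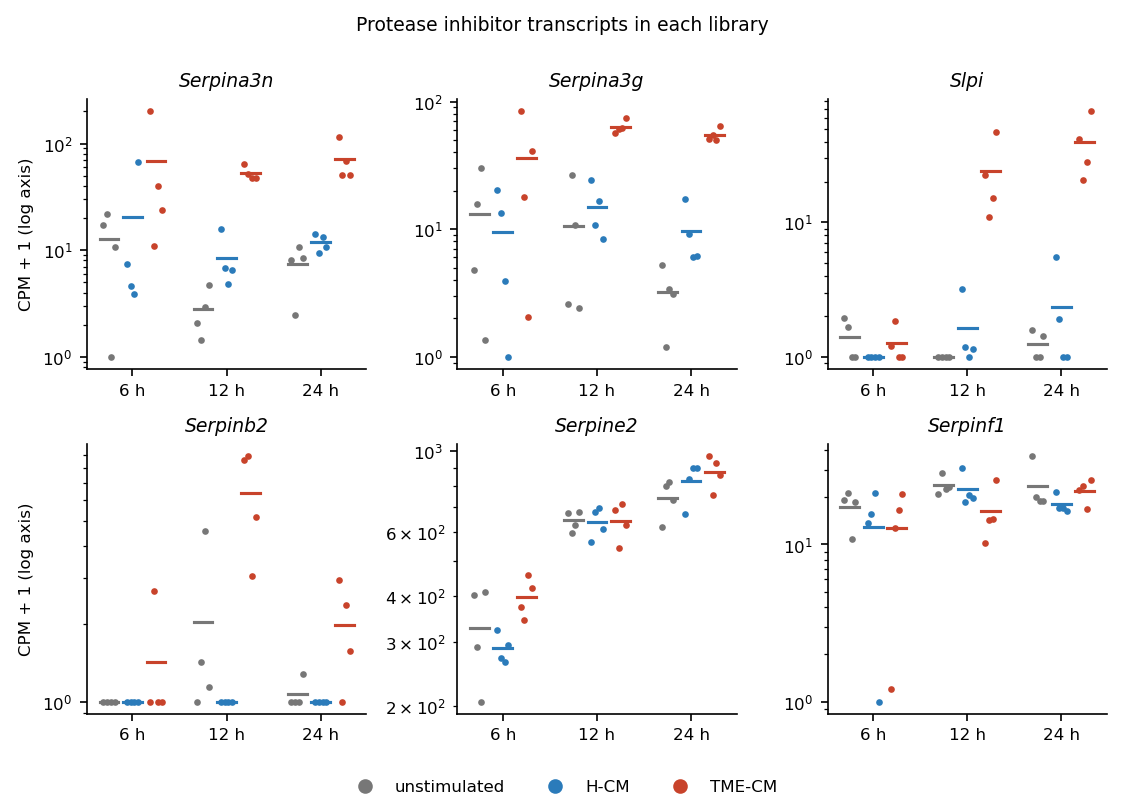
CPM + 1 on a log axis for the 6 protease inhibitors in each of the 36 libraries, by time and stimulation; points are libraries and bars are group means (n = 4). Serpina3n, Serpina3g and Slpi under TME-CM lie above every H-CM and unstimulated library at 12 h and 24 h, and Serpine2 stays between 542 and 965 CPM in all groups of these times.

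Slpi, which inhibits neutrophil elastase, went from a transcript with almost no counts to a readily counted one. At 24 h the 4 TME-CM libraries read 40.5, 19.6, 27.4 and 66 CPM, against 4.53, 0.915, 0 and 0 CPM under H-CM and 0.571, 0, 0 and 0.42 CPM without stimulation. The lowest TME-CM library was above every other library of that time, and H-CM and unstimulated libraries overlapped. Against H-CM the log2 fold change was 4.82 (SE 0.78, adjusted p = 0.00266, edgeR) and against unstimulated cells 7.29 (SE 0.97, adjusted p = 2.74e-04). H-CM alone gave 2.47 (SE 1.40, adjusted p = 0.609), with a 95% interval of -0.27 to 5.20 on the log2 scale, and without a count filter its adjusted p was 0.00561.

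At 12 h Slpi read 21.7, 9.94, 14.2 and 46.4 CPM under TME-CM, against 2.2, 0.179, 0 and 0.148 CPM under H-CM and 0 in all 4 unstimulated libraries. TME-CM lay above all other libraries of that time, and H-CM and unstimulated libraries overlapped. The difference from H-CM was a log2 fold change of 5.34 (SE 0.85, adjusted p = 0.0022, edgeR). Against unstimulated cells the level was at least 116-fold higher, taking 3 counts over the group as the floor (adjusted p = 1.60e-04). The size of the difference from H-CM rested on replicate 1 of H-CM: without it the log2 fold change was 7.29 at 12 h and 6.77 at 24 h, and the call was kept. Without replicate 4 of TME-CM at 12 h it was 4.70 (adjusted p = 0.0263), and without replicate 3 of H-CM at 24 h it was 4.18. At 6 h Slpi had at most 1 count in any library and was not tested.

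Serpina3n, a secreted serpin of the antichymotrypsin type, showed the same order at both later times. At 12 h its libraries read 63.6, 50.5, 46.4 and 46.1 CPM under TME-CM, 14.9, 5.73, 3.8 and 5.47 CPM under H-CM and 1.05, 0.428, 1.91 and 3.75 CPM without stimulation. None of these 3 groups overlapped another. TME-CM differed by a log2 fold change of 2.81 from H-CM (SE 0.41, adjusted p = 5.75e-04, edgeR) and of 4.58 from unstimulated cells (SE 0.47, adjusted p = 3.41e-06), while the step from unstimulated to H-CM, 1.77 (SE 0.47), missed the threshold (adjusted p = 0.189). Without replicate 4 of the unstimulated libraries, the difference between TME-CM and unstimulated cells at 12 h was 5.36.

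At 24 h Serpina3n read 115, 50.2, 67.2 and 49.3 CPM under TME-CM, 13.1, 8.42, 12.2 and 9.7 CPM under H-CM and 7.13, 1.46, 9.62 and 7.42 CPM without stimulation. TME-CM stood above both other groups, which overlapped each other. It differed by a log2 fold change of 2.69 from H-CM (SE 0.38, adjusted p = 5.23e-04, edgeR) and 3.45 from unstimulated cells (SE 0.40, adjusted p = 2.52e-05), beside 0.77 for H-CM against unstimulated cells (SE 0.42, adjusted p = 0.58). At 6 h the TME-CM libraries spread from 10 to 199 CPM and overlapped the H-CM libraries, of which replicate 4 read 65.4 CPM from 2 counts. That difference, a log2 fold change of 3.43 (SE 1.09), was not called (adjusted p = 0.557, edgeR).

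Serpina3g, an intracellular serpin known from lymphocytes as a cathepsin inhibitor, reached a narrow range under TME-CM. Its libraries read 49.8, 53.7, 49.2 and 63.8 CPM at 24 h, against 16.3, 8.23, 5.05 and 5.13 CPM under H-CM and 4.28, 0.182, 2.41 and 2.1 CPM without stimulation. The 3 groups did not overlap. On the log2 scale the difference was 2.61 for TME-CM against H-CM (SE 0.39, adjusted p = 5.30e-04, edgeR), 4.67 for TME-CM against unstimulated cells (SE 0.45, adjusted p = 2.25e-06) and 2.06 for H-CM against unstimulated cells (SE 0.48, adjusted p = 0.0357). The last of these calls was lost when any of 4 of the 8 libraries was left out, namely replicate 1 or 2 of H-CM (adjusted p = 0.0906 and 0.0861) and replicate 3 or 4 of the unstimulated cells (adjusted p = 0.0991 and 0.123).

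At 12 h Serpina3g read 56, 59.6, 61.5 and 72.8 CPM under TME-CM, 23.1, 9.68, 15.5 and 7.39 CPM under H-CM and 1.58, 25.7, 9.84 and 1.39 CPM without stimulation. TME-CM was again above all other libraries, but the unstimulated group spread over both ends of the H-CM range. Against H-CM the log2 fold change was 2.19 (SE 0.65, adjusted p = 0.142, edgeR), and against unstimulated cells 2.77 (SE 0.68, adjusted p = 0.0348). The first was called with only the groups compared (adjusted p = 0.0035) and without a count filter (adjusted p = 2.45e-10). The second value was called in 3 of the 8 fits that left out a library: without replicate 2 of the unstimulated cells it was 3.86 (adjusted p = 4.08e-04), and without replicate 3 of the unstimulated cells or replicate 1, 2, 3 or 4 of TME-CM the adjusted p was 0.0942, 0.0651, 0.0615, 0.07 or 0.08. Of the 451 windows of 50 bases in the last 500 bases of the Serpina3g transcript, 11, or 2.44%, also occur in Serpina3f. None of those of the other 8 members occur in another annotated transcript. Reads mapping to several loci were discarded before counting. The read length is not given, so these exact matches do not measure how many reads were ambiguous.

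**Figure D2:**
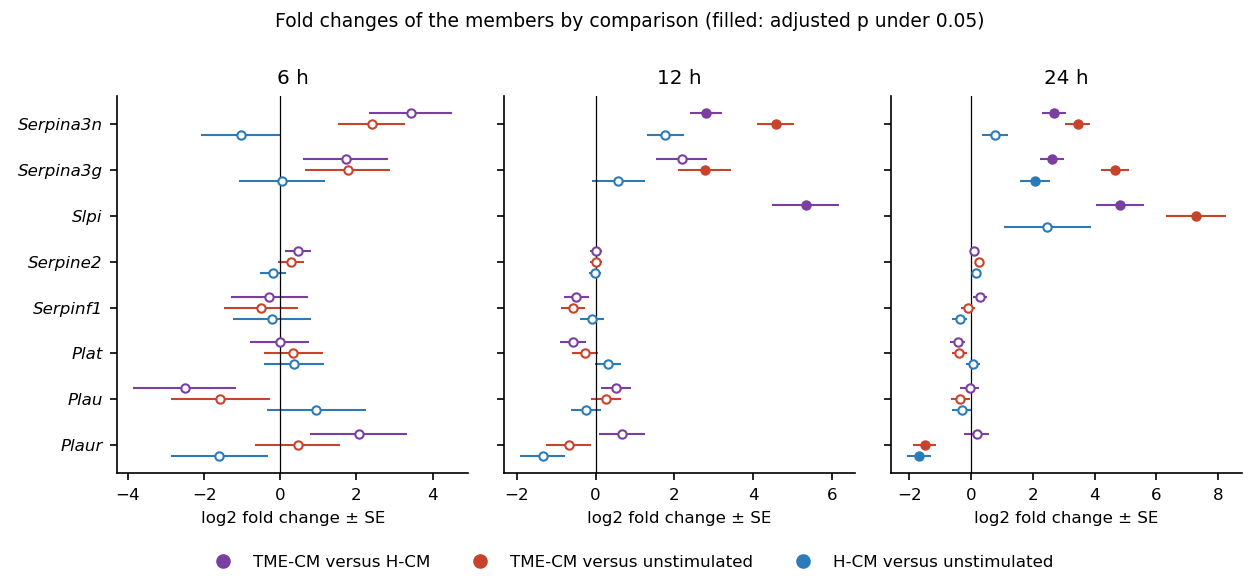
Log2 fold change with its standard error for 8 members in the 3 comparisons at 6, 12 and 24 h; filled points had an adjusted p under 0.05 by edgeR. Between the conditioned media Serpina3n lies at 2.81 and 2.69 at 12 h and 24 h and Serpine2 at 0.01 and 0.09, and against unstimulated cells Plaur lies at -1.51 and -1.69 at 24 h. Values that rest on a group without counts, and Serpinb2, are left out.

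Serpinb2, the plasminogen activator inhibitor of monocytes and keratinocytes, was rare and appeared mainly under TME-CM. At 12 h it read 7.58, 7.87, 2.06 and 4.19 CPM under TME-CM, from 81 counts in all, and had no count in any of the 12 H-CM libraries of the 3 times. The 12 h difference from H-CM was at least 36.5-fold (adjusted p = 0.0148, edgeR), with 3 counts over the group as the floor. It lost its call without replicate 1 of TME-CM (adjusted p = 0.0564) or without replicate 2 or 4 of H-CM (adjusted p = 0.0568 and 0.0556).
The unstimulated libraries of 12 h read 0, 0.428, 3.55 and 0.139 CPM and overlapped TME-CM. That difference, a log2 fold change of 2.30 (SE 1.06), was not called (adjusted p = 0.377, edgeR). At 24 h the TME-CM libraries read 1.95, 0, 1.37 and 0.571 CPM, from 24 counts in all, and overlapped H-CM. Their mean was 6.41-fold the same floor for H-CM, a ratio that ignores the spread of the TME-CM libraries. The gene fell below the count filter and was not tested. Without a filter the difference was not called (adjusted p = 0.0588, edgeR). The Serpinb2 gene model shares 291 exonic bases with Serpinb10 on the same strand, so that counts of these genes can be confused there.

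Serpine2, protease nexin, which inhibits thrombin and urokinase, was not called in any comparison. Its mean ± SD at 24 h was 877 ± 91.4 CPM under TME-CM, 826 ± 107 CPM under H-CM and 742 ± 91.8 CPM without stimulation (n = 4). The log2 fold change between the conditioned media was 0.09 (SE 0.13, adjusted p = 0.827, edgeR), with a 95% interval of -0.16 to 0.34. At 12 h the means were 642 ± 76.9, 637 ± 62.6 and 644 ± 40.6 CPM in the same order, and the log2 fold change between the media was 0.01, with an interval of -0.29 to 0.31. At 6 h the 4 TME-CM libraries, 343 to 457 CPM, were above the 4 H-CM libraries, 264 to 322 CPM, but the difference of 0.47 (SE 0.34) was not called (adjusted p = 0.911).

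Serpinf1, a secreted serpin without protease inhibitor activity known as pigment epithelium-derived factor, read 21.1 ± 3.87, 17.1 ± 2.38 and 22.6 ± 8.57 CPM under TME-CM, H-CM and no stimulation at 24 h (SD, n = 4). Its groups overlapped in all comparisons, and the log2 fold change between the media was 0.29 (SE 0.24, adjusted p = 0.634, edgeR) at 24 h and -0.49 (SE 0.31, adjusted p = 0.643) at 12 h.

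Plasminogen activators and their receptor were not called between the conditioned media, and of these 3 genes the receptor was called against unstimulated cells. Plat, tissue-type plasminogen activator, read 32.2, 22.7, 26.4 and 17.1 CPM under TME-CM at 24 h, against 42.8, 35.7, 24.5 and 31.4 CPM under H-CM and 49.9, 31.9, 23.3 and 25.2 CPM without stimulation. These groups overlapped. The log2 fold change between the media was -0.44 (SE 0.24, adjusted p = 0.414, edgeR) at 24 h, with a 95% interval of -0.92 to 0.04, and -0.58 (SE 0.33, adjusted p = 0.588) at 12 h.

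Plau, urokinase, averaged 13.3 ± 7.46 CPM under TME-CM, 13.5 ± 2.68 CPM under H-CM and 17 ± 3.91 CPM without stimulation at 24 h (SD, n = 4). The libraries overlapped, and the log2 fold change between the media was -0.04 with a 95% interval of -0.65 to 0.58. At 6 h it was -2.51 (SE 1.35, adjusted p = 0.877, edgeR), where 2 of the 4 TME-CM libraries had no count.

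Plaur, the membrane-anchored receptor that concentrates urokinase at the cell surface, was lower under both conditioned media than in unstimulated cells at 24 h. The unstimulated libraries read 24.8, 16.7, 11.4 and 10.9 CPM, the H-CM libraries 9.05, 2.38, 2.59 and 6.85 CPM and the TME-CM libraries 4.39, 6.98, 5.49 and 5.71 CPM. Every unstimulated library lay above all 8 libraries with conditioned medium, and the 2 media overlapped. Against unstimulated cells it was -1.51 on the log2 scale for TME-CM (SE 0.38, adjusted p = 0.0113, edgeR) and -1.69 for H-CM (SE 0.39, adjusted p = 0.0223). Both comparisons share the unstimulated libraries. The H-CM call was lost without replicate 1 or 2 of the unstimulated cells (adjusted p = 0.068 and 0.063) and without replicate 2 or 3 of H-CM (adjusted p = 0.104 and 0.113), and the TME-CM call was kept in all 8 fits that left out a library.
At 12 h the H-CM libraries, 1.43 to 8.25 CPM, were below the unstimulated libraries, 9.84 to 21.4 CPM, and the difference of -1.35 (SE 0.57) was not called (adjusted p = 0.79, edgeR). TME-CM spread from 2.1 to 17 CPM at 12 h and overlapped both.

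**Figure D3:**
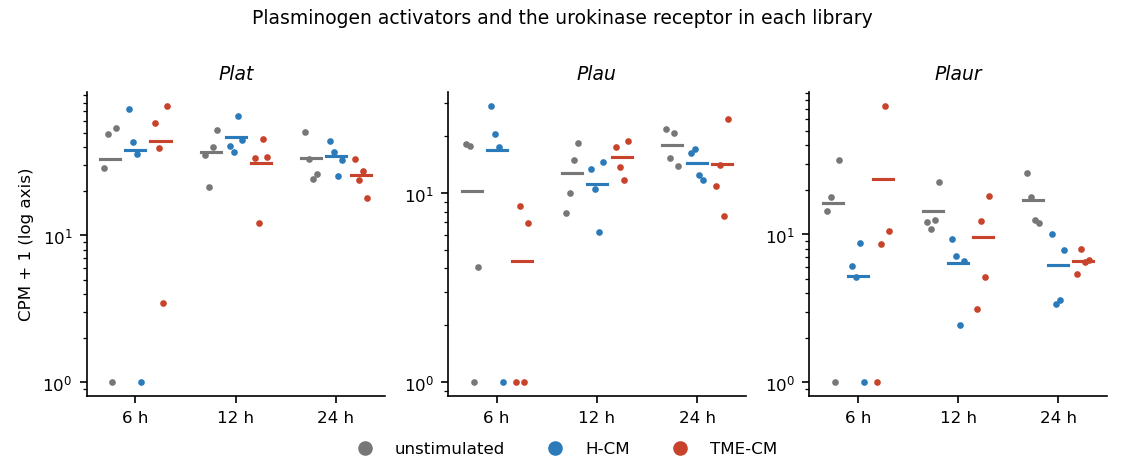
CPM + 1 on a log axis for Plat, Plau and Plaur in each of the 36 libraries, by time and stimulation; points are libraries and bars are group means (n = 4). At 24 h the Plaur points of both conditioned media, 2.38 to 9.05 CPM, lie below the unstimulated points, 10.9 to 24.8 CPM, while Plat and Plau overlap in all groups.

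Against unstimulated cells, TME-CM called 4 of 8 tested members at 24 h, with Serpina3n, Serpina3g and Slpi higher and Plaur lower, where 9.52% of 12713 genes were called. At 12 h it called Serpina3n, Serpina3g and Slpi, 3 of 9, against 4.41% of 12156 genes, and at 6 h 0 of 7 against 0.454% of 9256 genes, with 1 member, Serpina3n, at an unadjusted p under 0.05 and 0 called by DESeq2. H-CM called 2 of 8 at 24 h, Serpina3g higher and Plaur lower, against 2.03% of genes. It called 0 of 9 at 12 h against 0.403%, where 4 members had an unadjusted p under 0.05 by edgeR and DESeq2 called 1, Serpina3n. At 6 h it called 0 of 7 against 0%, where 58 of 9256 genes and 0 members had an unadjusted p under 0.05 by edgeR, and DESeq2 called 0 members. The 3 comparisons of a time point share their groups pairwise. Libraries of TME-CM and unstimulated cells did not overlap for 13.1% of genes tested at 24 h and 10.6% at 12 h. For H-CM and unstimulated cells these shares were 8.15% and 3.94%.

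The 24 h and 12 h levels of each stimulation were compared in a separate model of these 24 libraries. No member was called in unstimulated cells, H-CM or TME-CM, where 0.0153%, 0.00763% and 0.626% of 13105 genes were called. At an unadjusted p under 0.05 by edgeR there were 3, 0 and 2 members in that order, and DESeq2 called 0 in each. Under TME-CM, Slpi differed by 0.61 on the log2 scale (SE 0.70, adjusted p = 0.91, edgeR), Serpina3n by 0.32 (SE 0.37, adjusted p = 0.912) and Serpina3g by -0.34 (SE 0.55, adjusted p = 0.944). Serpinb2 was lower at 24 h by a log2 value of -2.45 (SE 0.99), which missed the threshold (adjusted p = 0.482). In unstimulated cells, Serpina3n differed by 1.39 (SE 0.52, adjusted p = 0.799) and Serpina3g by -2.22 (SE 0.74, adjusted p = 0.774). The change of the difference between TME-CM and H-CM from 12 h to 24 h was called for 0 members and 0% of 13105 genes, with 436 genes at an unadjusted p under 0.05. From 6 h to 24 h it was also called for 0 members and 0% of 12115 genes, with 1021 at an unadjusted p under 0.05 by edgeR. DESeq2 called 0 members in either. For Serpina3n the change from 12 h to 24 h was -0.12 with a 95% interval of -1.22 to 0.98, and for Slpi -0.60 with an interval of -3.23 to 2.04.

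Other inhibitors and proteases of the same systems were counted from fixed lists, for TME-CM against H-CM at 24 h. Of 62 other serpins listed, 11 passed the count filter, of which 4 were higher and 1 lower, and their median log2 fold change was 0.67 against 0.00 for all genes tested. Of 24 other protease inhibitors, 11 were tested and 2 were higher, with a median of 0.06. Of 20 genes of the plasminogen and coagulation system, 16 were tested, with 2 higher, 1 lower and a median of 0.12. Of 25 listed proteases, 11 were tested, with 0 higher, 2 lower and a median of -0.18. Among all 12713 genes tested, 2.75% were higher and 2.65% lower. The serpin and plasminogen lists share a gene, so their counts overlap.

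Serpina3f, a neighbor of Serpina3g in the same cluster (chr12:104214544-104221129, plus strand), showed the largest difference of the genes named from these lists, at 26.5 ± 8.22 CPM under TME-CM, 0.963 ± 0.57 CPM under H-CM and 0.121 ± 0.0822 CPM without stimulation at 24 h (SD, n = 4). Its log2 fold change between the media was 4.73 (SE 0.39, adjusted p = 6.36e-08, edgeR). Serpina3i, a further gene of the cluster named after its values were seen, read 6.08 ± 1.99 CPM under TME-CM and 0.277 ± 0.288 CPM under H-CM, with no count in the unstimulated libraries. Serping1, the C1 inhibitor of complement, read 604 ± 95.2 CPM under TME-CM, 212 ± 68.5 CPM under H-CM and 127 ± 12.2 CPM without stimulation, a log2 fold change of 1.51 between the media (SE 0.17, adjusted p = 1.09e-05).

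Wfdc17, which like Slpi carries a WAP domain, read 40.3 ± 16.7 CPM under TME-CM against 3.15 ± 2.42 CPM under H-CM and 1.4 ± 1.19 CPM without stimulation (SD, n = 4), a log2 fold change of 3.59 between the media (SE 0.54, adjusted p = 7.93e-04, edgeR). Pi15, a secreted protein named as a peptidase inhibitor, differed by 1.36 (SE 0.32, adjusted p = 0.00986).

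Prss23, a secreted serine protease, was lower under TME-CM than under H-CM at 24 h, at 63.9 ± 16 against 130 ± 27.1 CPM, with 333 ± 45.4 CPM in unstimulated cells (SD, n = 4). The log2 fold change between the media was -1.04 (SE 0.17, adjusted p = 5.77e-04, edgeR). F2r, a thrombin receptor, was lower by a log2 value of -0.48 (SE 0.12, adjusted p = 0.0141), and Serpinb9b, a granzyme inhibitor relative, by -1.20 (SE 0.21, adjusted p = 8.93e-04). Tfpi2 was a higher gene of the plasminogen and coagulation list, at 4.82 ± 1.95 against 0.478 ± 0.606 CPM. Prss35 was the other lower gene of the protease list, at 0.457 ± 0.384 against 2.46 ± 0.646 CPM. Both were named after their values were seen. Plasminogen itself, Plg, had 0 counts in the libraries of 6 h and 24 h and 3 at 12 h.

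**Figure D4:**
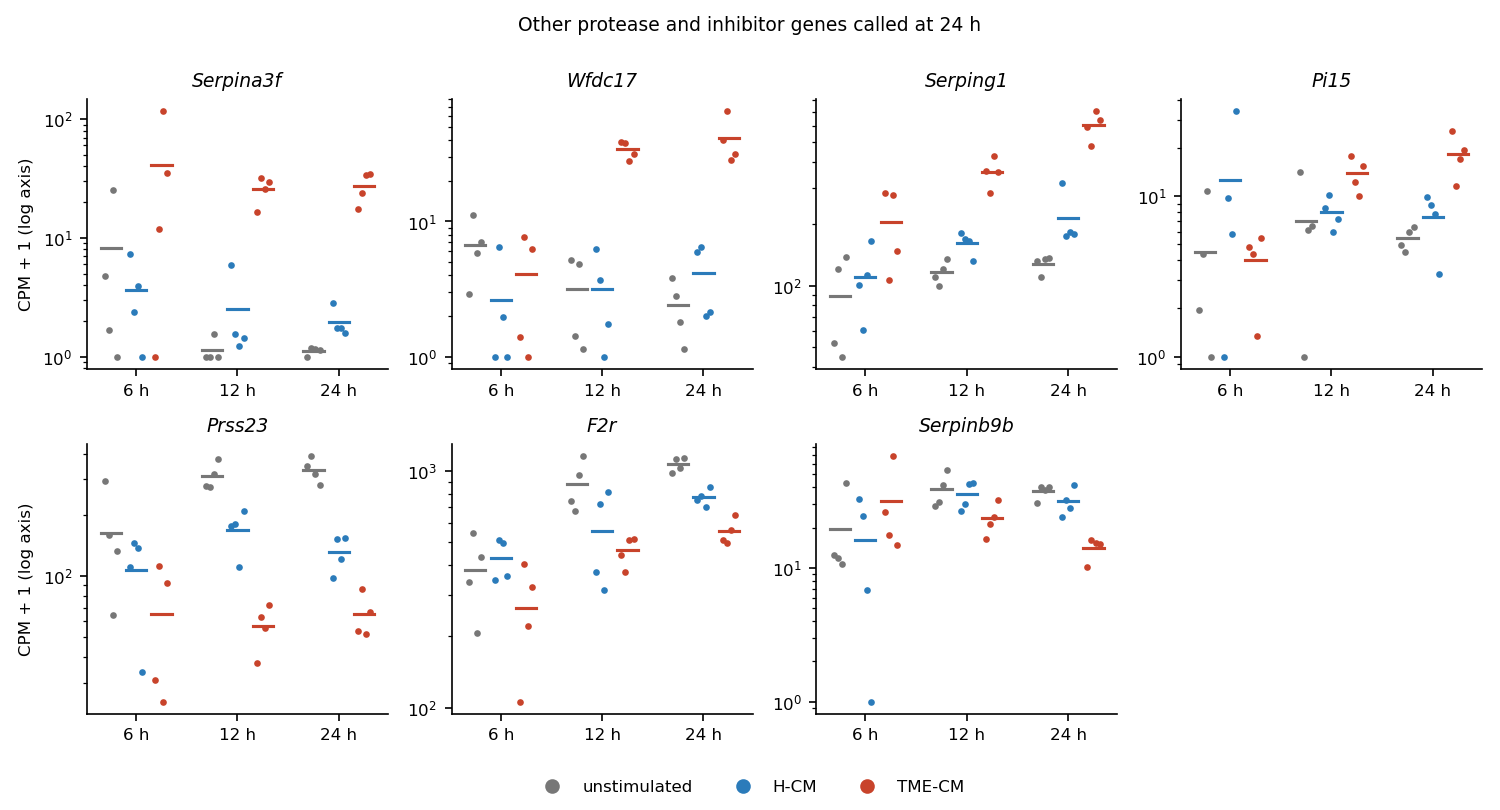
CPM + 1 on a log axis for 7 further inhibitor, protease and receptor genes in each of the 36 libraries, by time and stimulation; points are libraries and bars are group means (n = 4). Serpina3f and Wfdc17 under TME-CM lie above all other libraries at 12 h and 24 h.

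Several marker lists moved with these groups at 24 h. The 6 neutrophil markers summed to 14.8 to 37.4 CPM under TME-CM, 2.28 to 3.85 CPM under H-CM and 1.12 to 2.91 CPM without stimulation, in the direction of Slpi and the Serpina3 genes. S100a8 made most of this sum, at 24.2 ± 9.43 CPM under TME-CM (SD, n = 4). In the TME-CM libraries S100a9 and Cxcr2 also had counts, and Ly6g, Csf3r and Retnlg had none. Under H-CM Ly6g and Csf3r had no count, and without stimulation Ly6g, Csf3r, Cxcr2 and Retnlg had none. The 6 smooth muscle markers summed to 1850 to 2710 CPM under TME-CM, 3570 to 4390 CPM under H-CM and 7750 to 8930 CPM without stimulation, the order shown by Prss23 and F2r and, against unstimulated cells, by Plaur. All 6 were lower under each medium than in unstimulated cells, and 4 of 6 were lower under TME-CM than under H-CM. For the fibroblast list, 4 of 6 markers were higher under TME-CM than under H-CM. The 5 endothelium markers summed to 11.6 to 28, 34.9 to 69.6 and 39.4 to 59.1 CPM under TME-CM, H-CM and no stimulation. No macrophage or neuron marker was called between the groups at 24 h. Mesothelium markers summed to 10.1 to 15.4, 11.1 to 19.6 and 14.6 to 18.8 CPM in the same order, and epithelium markers to at most 8.29 CPM. The part of these cell types in the results above was not tested.

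Across the 24 libraries of 12 h and 24 h, log2 CPM of Serpina3n and Slpi correlated with Pearson's r = 0.89, of Serpina3g and Slpi with r = 0.82, and of Serpina3n and Serpina3g with r = 0.72. These libraries fall into 6 groups of stimulation and time, and the values describe that shared grouping. Plaur correlated with the 3 genes at r = -0.32 for Serpina3n, -0.37 for Serpina3g and -0.18 for Slpi. Among 10192 genes averaging 5 CPM or more, the patterns most like Serpina3n were those of Cebpd (r = 0.94), Rspo3 (r = 0.93) and Slc16a3 (r = 0.93). Those most like Serpina3g were Mt1 (r = 0.93), Mt2 (r = 0.92) and Fth1 (r = 0.91), and those most like Slpi were Saa1, Hif1a and Timp1 (r = 0.97 each). With the 6 h libraries included, 36 in all, Saa1 (r = 0.93) and Timp1 (r = 0.91) were still among the 3 genes nearest to Slpi, while the 3 nearest to Serpina3n became Litaf, Ier3 and Serping1 (r = 0.79 to 0.81) and to Serpina3g H2-K1, Psmb8 and Steap4 (r = 0.78 to 0.81).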

How the data were processed

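The authors prepared 3′ mRNA libraries (QuantSeq, Lexogen), checked reads with FastQC 0.11.7, trimmed adapters, aligned with HISAT2 to mm10, discarded reads mapping to several loci, and deposited raw read counts per gene (HT-seq Count; SAMtools 1.5). The annotation, strand setting, read length and use of molecular identifiers are not given in the sources used here. Members and gene lists were chosen with earlier results of these data known.

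Counts were fitted with edgeR 4.0.16 (R 4.3.3): TMM scaling, filterByExpr with a minimum count of 10, robust quasi-likelihood fits with 1 mean per group, and Benjamini-Hochberg adjustment over all genes tested; calls had an adjusted p under 0.05. Each time point was fitted on its 12 libraries, so that CPM levels of different times rest on separate scalings; a 24-library model compared 12 h with 24 h, and a 16-library model 6 h with 24 h. The standard error was the log2 fold change divided by the root of the F statistic. The 95% intervals were the log2 fold change ± 1.96 SE. This normal quantile makes them somewhat narrow for so few libraries. Bounds took 3 counts over the group without counts as the floor. DESeq2 1.42.0, its size factors, no filter, only the groups compared, all 36 libraries, a replicate block and leaving out each library were alternatives; leaving out Yam1 was added after seeing the data. Labels do not say that replicates are separate cultures, so p-values measure only the spread between these samples. Floors cover counting error only.

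Other genes named were up to 5 higher and 5 lower list genes with the largest called change at 24 h between the media and a mean of at least 5 CPM, and the 3 genes with the highest Pearson correlation with a called member. A gene that the rule also names is not reported here. On counts simulated from these libraries, the test called 29.3% of 191 genes changed by a log2 value of 2 at 6 h, 74.7% of 194 at 12 h and 87.3% of 197 at 24 h, with 0 of wrong sign. Changed genes were drawn from those past the count filter, with a common mean over all groups before the change. Genes with almost no counts in some groups, such as Slpi and Serpinb2, are therefore not represented.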

Additional observations from a re-analysis of the deposited data

Results flagged for a closer look

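Dixon's criterion flags about 1 in 20 sets of 4 libraries when values are normally distributed. Of 75 sets with any spread, 1 per member and group, 11 held a library far from the other 3 by this criterion. At 6 h these were Serpina3n in H-CM replicate 4 (65.4 CPM from 2 counts), Serpina3n in TME-CM replicate 1 (199 CPM from 995 counts; the nearest library read 38.6), Serpinb2 in TME-CM replicate 2 (1.67 CPM from 2 counts) and Plaur in TME-CM replicate 3 (72.7 CPM from 207 counts; the nearest read 9.53). At 12 h they were Serpinb2 in unstimulated replicate 3 (3.55 CPM from 13 counts), Serpinf1 in H-CM replicate 1 (29.7 CPM), Slpi in H-CM replicate 1 (2.2 CPM from 8 counts) and Plaur in unstimulated replicate 4 (21.4 CPM). At 24 h they were Serpinb2 in unstimulated replicate 4 (0.28 CPM from 2 counts), Serpinf1 in unstimulated replicate 1 (35.4 CPM) and Serpinf1 in H-CM replicate 1 (20.6 CPM). A set with counts in a single library is flagged however few they are, as for Serpinb2 with 2 counts. The share flagged was above 1 in 20, and whether it reflects odd libraries or values that are not normally distributed was not tested.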

How the results depend on the processing

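Of 225 alternative values of the 15 called member differences, 202 kept direction and call, 23 kept direction and lost the call, and 0 reversed; of 1635 alternative values of the 101 uncalled ones, 10 gained a call and 72 had the other sign while staying uncalled. With all 36 libraries in 1 model, members called were 2 for TME-CM against H-CM at 6 h (Serpina3n and Plau), 1 for TME-CM against unstimulated at 6 h (Serpina3n) and 0 for H-CM against unstimulated at 24 h; the adjusted p of Serpina3g between the media at 24 h became 0.323 and that of Plaur for TME-CM against unstimulated 0.985. H-CM against unstimulated at 12 h gave 1 (Serpina3n) without a count filter and 1 by DESeq2's Wald test, and at 24 h 1 (Plaur) with only the groups compared and 0 to 2 when a library was left out. Unstimulated 24 h against 12 h gave 2 (Serpina3n and Serpina3g) without a filter, which also gave a call to Slpi for H-CM against unstimulated at 24 h (adjusted p = 0.00561) and to Serpina3g between the media at 12 h (adjusted p = 2.45e-10). The causes were not tested. Serpina3g for TME-CM against unstimulated at 12 h also lost its call with only the groups compared (adjusted p = 0.0805) and gained one against H-CM at 12 h (adjusted p = 0.0035). Same-numbered libraries of different groups did not deviate together: 5 of 36 correlations of their deviations exceeded 0.1 (r = -0.16 to 0.23), and the replicate block gave 3, 4 and 2 members called at 24 h in the 3 comparisons, as without it, and changed no other count of members called. At 6 h 7 of 9 members passed the count filter, and Slpi and Serpinb2 had at most 2 counts in any library of that time.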
